A study of Mus musculus with 27 samples.

Results

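DUOX and NOX oxidases are membrane enzymes that make hydrogen peroxide or superoxide, and 8 genes of this system were followed through the postnatal life of the mouse heart. They were Duox1 and Duox2 (dual oxidases), Duoxa1 (the maturation factor of Duox1), Nox4 and Cybb (catalytic NOX subunits), Cyba (the partner subunit of Nox4 and Cybb), and the secreted antioxidant enzymes Gpx3 and Sod3. They were chosen by symbol, and all 8 were found among the 22855 genes of both count tables. The choice rested on a measured value, because Duox1 was included for its appearance in fibroblasts after birth. Fibroblast levels against postnatal day 1 are therefore given for these genes without a test, and so is the level of Duox1 in fibroblasts beside that in whole heart at 4 weeks.

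RNA-Seq was performed on PDGFRα cardiac fibroblasts and on whole hearts of C57Bl/6 mice of 5 ages, namely newborns on postnatal day 1, juveniles of 4 weeks, adults of 14 weeks, and older mice of 1 year or 1.5 years, with no allele or treatment named for any group. Fibroblasts were sorted by flow cytometry for the surface receptor PDGFRα after the ventricles had been digested, with atria and valves removed. Fibroblasts gave 12 samples, with 3 at postnatal day 1, 3 at 4 weeks, and 2 at each of the older ages, and whole hearts gave 15, with 3 for every age. The labels give neither the sex of the animals nor the number of hearts behind a sample, so p-values measure the spread between these samples. By the study's account the fibroblasts came from the same hearts, but no label ties a fibroblast sample to a heart sample.

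Each fibroblast sample held between 54615898 and 76758831 counts and each heart sample between 46091271 and 67984404. Levels below are counts per 1000000 (CPM) after TMM scaling within each tissue, which corrects library totals for shifts carried by a few highly expressed genes. Summed over 7 fibroblast markers, fibroblast samples reached between 19170 and 39400 CPM and hearts between 720.2 and 1444 CPM. Other cells were not wholly absent from the sort. Cardiomyocyte markers (7 genes) summed to between 670.3 and 725.6 CPM in fibroblasts at postnatal day 1 and to between 13.8 and 167.2 CPM at later ages, and endothelial markers (8 genes) to between 443.6 and 662.3 CPM at postnatal day 1, 595.5 and 1975 CPM at 4 weeks, 1289 and 1568 CPM at 14 weeks, 465.6 and 649.4 CPM at 1 year, and 310.8 and 1289 CPM at 1.5 years. Replicate 3 held the 1975 CPM at 4 weeks, against at most 705.2 CPM in its other 2 samples. Xist, the RNA of the silenced X of females, was at most 0.570 CPM in every sample at 14 weeks and 1 year and at least 6.48 CPM at the other ages, whereas the Y-linked gene Ddx3y was at most 0.397 CPM at 1.5 years and at least 1.64 CPM elsewhere. The sex of the animals and age therefore cannot be told apart in comparisons of 14 weeks with 4 weeks or of 1.5 years with 14 weeks or 1 year, in either tissue. At postnatal day 1 and 4 weeks every sample held both RNAs. Their sum went from between 173.5 and 307.4 to between 403.4 and 615.9 CPM in fibroblasts, and from between 150.9 and 350.5 to between 12.89 and 142.1 CPM in hearts. The part of sex in comparisons of these ages, or of the tissues at 4 weeks, was not tested. In bulk samples, fewer cells of a type and less RNA per cell cannot be told apart.

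The catalytic subunits move electrons from NADPH across a membrane to oxygen. Duox1 and Duox2 release hydrogen peroxide and need a maturation factor (Duoxa1 or Duoxa2) to leave the endoplasmic reticulum, and they are best known from thyroid and epithelial surfaces. Nox4 makes mainly hydrogen peroxide with Cyba as its partner and is known from fibroblasts, vessel wall, and heart, whereas Cybb is the superoxide-producing subunit of phagocytes, where Cyba is also its partner. Sod3 converts superoxide to hydrogen peroxide outside the cell, and Gpx3 removes hydrogen peroxide in the extracellular fluid.

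Duox1, Duoxa1, and Duox2 lie in a single cluster of 68.7 kb at chr2:122279247-122347972 (GRCm38, GENCODE M21). Duox1 (chr2:122315672-122347972, plus strand) and Duoxa1 (chr2:122302191-122313730, minus strand) point away from each other, with starts 1942 bases apart. Duox2 (chr2:122279247-122298449, minus strand) starts 451 bases from Duoxa2, which overlaps Duoxa1 by 695 bases on the opposite strand. In RefSeq, Duox1 begins further upstream, at position 122313010, and shares 754 bases with Duoxa1. The strand setting of the counting is not given in the sources used here, so reads from these overlaps cannot be assigned with certainty. The other 5 genes lie apart, Nox4 at chr7:87246096-87398710, Cyba at chr8:122424776-122432930, Cybb at chrX:9435252-9487771, Gpx3 at chr11:54902453-54910377, and Sod3 at chr5:52363791-52371418.

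In fibroblasts, Duox1 and Duoxa1, a divergent pair, were both at or near 0 at postnatal day 1 and present at every later age. Duox2 overlapped with postnatal day 1 at 4 weeks and lay above it, at 0.916 CPM or less, from 14 weeks on. For this contrast the promoters of the DUOX genes are shown. Each is 300 bases of RefSeq sequence on GRCm38.p6, from 250 bases before to 50 bases after a transcript start that the table gives, written 5′ to 3′ on the strand of the gene, for Duox1 chr2:122315422-122315721 (plus strand), for Duoxa1 chr2:122313681-122313980 (minus strand), and for Duox2 chr2:122298178-122298477 (minus strand). The starts used lie within the RefSeq genes, 2662 bases from the outer end of Duox1, 33 from that of Duoxa1, and 513 from that of Duox2, and for Duox1 and Duoxa1 they are the GENCODE starts given above. Sequence at the outer RefSeq starts was not used here. Capitals mark the SP1 GC box.
Duox1: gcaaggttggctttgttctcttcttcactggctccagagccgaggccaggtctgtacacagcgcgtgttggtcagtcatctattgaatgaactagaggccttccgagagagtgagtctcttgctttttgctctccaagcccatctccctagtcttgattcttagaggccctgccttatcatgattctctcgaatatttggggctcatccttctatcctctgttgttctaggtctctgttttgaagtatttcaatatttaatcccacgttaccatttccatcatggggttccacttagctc
Duoxa1: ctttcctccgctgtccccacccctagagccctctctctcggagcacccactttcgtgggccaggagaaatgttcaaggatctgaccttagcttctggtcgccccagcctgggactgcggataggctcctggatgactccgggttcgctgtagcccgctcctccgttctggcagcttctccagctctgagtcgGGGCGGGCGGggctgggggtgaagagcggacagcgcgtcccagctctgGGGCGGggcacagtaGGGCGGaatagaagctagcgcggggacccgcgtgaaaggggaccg
Duox2: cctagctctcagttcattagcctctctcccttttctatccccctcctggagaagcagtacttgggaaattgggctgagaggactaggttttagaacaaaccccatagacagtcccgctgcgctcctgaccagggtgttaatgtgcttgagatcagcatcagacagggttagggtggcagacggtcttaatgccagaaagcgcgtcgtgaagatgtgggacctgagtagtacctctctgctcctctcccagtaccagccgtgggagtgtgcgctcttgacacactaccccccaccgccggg

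The 3 windows differed in base composition, which describes these windows and no other start of the genes. The Duox1 window had 46.7% GC and 6 CpG dinucleotides (observed to expected ratio 0.37), and 27.9% of the 27025 promoters in the table had a lower GC content. The Duoxa1 window had 65.7% GC and 22 CpG (ratio 0.68), above 83.4% of promoters, and Duox2 had 55.3% GC and 10 CpG (ratio 0.44), above 57.7%. The median promoter had 52.7% GC and a ratio of 0.39. The SP1 GC box (GGGCGG, both strands) occurred 4 times in Duoxa1, beginning 58, 54, and 10 bases before the start and 5 bases after it, the first 2 matches overlapping, and was not present in the Duox1 or Duox2 windows. It is held by 35.9% of all promoters in the table. None of the 3 windows held the TATA box (TATAAA, in 14.2% of promoters), the AP-1 site (TGANTCA, in 7.9%), or the core of the antioxidant response element (TGACNNNGC, in 12.5%), each searched on both strands. Promoters of 7 of the 8 genes were found, Sod3 being the exception.

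Duox1, the catalytic subunit, was near 0 in fibroblasts at postnatal day 1, with 0, 0.0146, and 0.0147 CPM in the 3 samples, which correspond to 0, 1, and 1 counts. At 4 weeks it was at 36.1, 31.8, and 34.2 CPM. Its 2 samples were at 20.8 and 24.5 CPM at 14 weeks, 27.9 and 12.7 CPM at 1 year, and 37.5 and 30.5 CPM at 1.5 years. All 9 samples after birth lay far above all 3 samples of postnatal day 1, and the lowest of the 9 was replicate 5 at 1 year. Against a floor of 3 counts per sample, the mean level was at least 773-fold higher at 4 weeks, at least 513-fold at 14 weeks, at least 460-fold at 1 year, and at least 772.5-fold at 1.5 years. The floor covers counting error only.

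Duoxa1, without which Duox1 is not delivered to the cell surface, had 0 counts in every fibroblast sample at postnatal day 1. It was at 6.69, 10.2, and 7.29 CPM at 4 weeks, 4.05 and 4.67 CPM at 14 weeks, 6.67 and 4.94 CPM at 1 year, and 8.78 and 6.19 CPM at 1.5 years. Every sample after birth was again above every sample at postnatal day 1. The mean was at least 183-fold higher than the floor of 3 counts at 4 weeks, at least 99.0-fold at 14 weeks, at least 132-fold at 1 year, and at least 170-fold at 1.5 years. Per kilobase of exon, Duoxa1 stood at between 0.246 and 0.516 of the level of Duox1 in the 9 samples. The highest ratio belonged to replicate 5 at 1 year, the sample in which Duox1 was lowest.

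**Figure D1:**
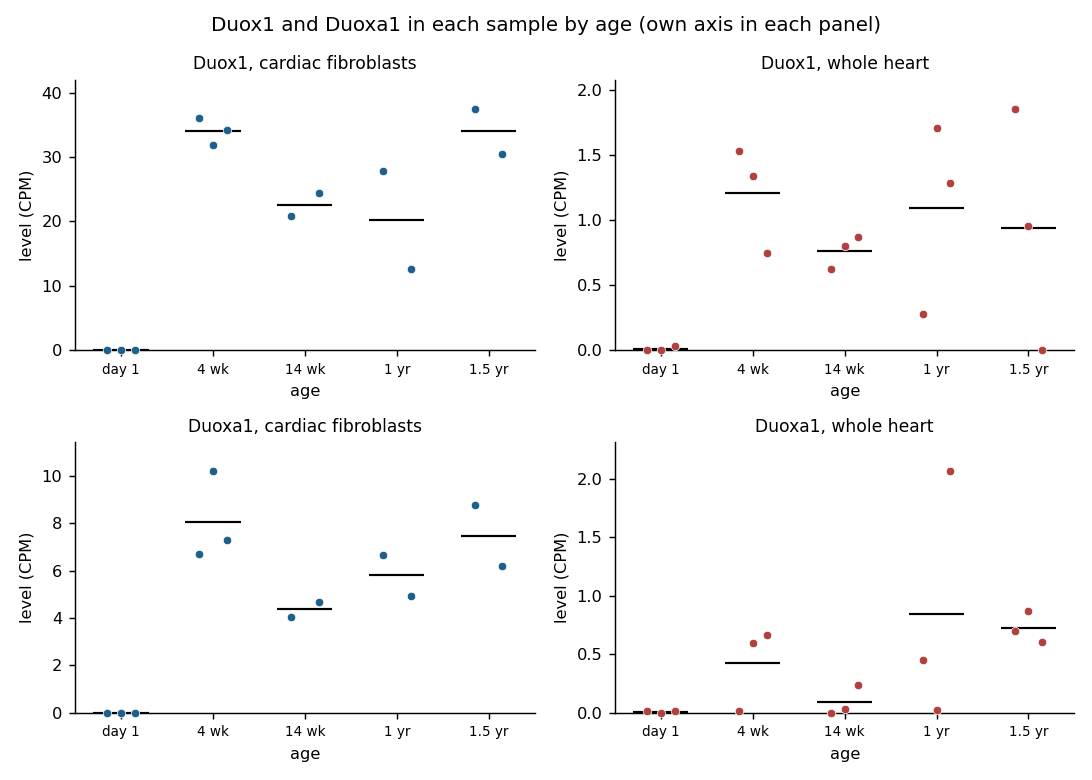
Levels of Duox1 and Duoxa1 in CPM (vertical axes, a scale of its own in each panel) at the 5 ages (horizontal axes) in fibroblasts (left) and whole hearts (right), each point being 1 sample and each bar the mean. In fibroblasts both genes were at or near 0 at postnatal day 1, and at later ages Duox1 lay between 12.7 and 37.5 CPM and Duoxa1 between 4.05 and 10.2 CPM.

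Among the later ages, Duox1 and Duoxa1 did not pass the test. From 4 to 14 weeks Duox1 went from 34.0 ± 2.14 CPM (SD, n = 3) to 22.6 ± 2.61 CPM (SD, n = 2), a log2 change of -0.59 (SE 0.33, adjusted p = 0.420 in edgeR), although the samples of these ages did not overlap. For Duoxa1 the log2 change was -0.89 (SE 0.61, adjusted p = 0.535 in edgeR), from 8.06 ± 1.87 to 4.36 ± 0.436 CPM. Between 14 weeks and 1 year the log2 change of Duox1 was -0.16 (SE 0.36, adjusted p = 0.975 in edgeR) and turned to 0.30 without replicate 5 at 1 year, and that of Duoxa1 was 0.41 (SE 0.65, adjusted p = 0.929 in edgeR). At 1.5 years against 14 weeks they differed by 0.59 (SE 0.36, adjusted p = 0.506 in edgeR) and 0.78 (SE 0.66, adjusted p = 0.650 in edgeR).

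Duox2, the other dual oxidase, was low in both tissues, and its replicates differed widely at several ages. In fibroblasts it was at 0, 0.322, and 0 CPM at postnatal day 1 and at 3.71, 0, and 0 CPM at 4 weeks, where replicate 1 alone held 277 counts. At later ages all 6 fibroblast samples held between 0.371 and 0.916 CPM. They lay above every sample of postnatal day 1, at the closest by 0.371 against 0.322 CPM. In whole heart it was at 0.993, 0.845, and 0.365 CPM at postnatal day 1, 0.223, 0, and 0.848 CPM at 4 weeks, and 0, 0.827, and 0.158 CPM at 14 weeks. At 1 year replicate 3 reached 4.87 CPM against 0.275 and 0.886 CPM in the other 2 hearts, and at 1.5 years the hearts were at 0.570, 2.30, and 2.14 CPM. Its samples overlapped between every pair of consecutive ages in both tissues, and edgeR called it in none of the comparisons tested.

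Nox4, the constitutively active oxidase, was present in fibroblasts at every age. It was at 3.53, 6.29, and 2.80 CPM at postnatal day 1, 5.39, 14.6, and 15.8 CPM at 4 weeks, 29.5 and 41.0 CPM at 14 weeks, 45.0 and 42.0 CPM at 1 year, and 28.5 and 32.7 CPM at 1.5 years. The samples of 4 weeks overlapped with those of postnatal day 1 through replicate 1, and all samples from 14 weeks on lay above both. The mean was 2.83 times that of postnatal day 1 at 4 weeks, 8.37 times at 14 weeks, 10.3 times at 1 year, and 7.26 times at 1.5 years. From 4 to 14 weeks the log2 difference was 1.56 (SE 0.42) and the samples did not overlap, but edgeR gave an adjusted p of 0.0607. It passed with DESeq2 (adjusted p = 0.0120), with library totals in place of TMM in edgeR (0.0489), without a filter on low counts (0.0373), and with a minimum of 10 counts per sample (0.0295), over a range of 0.0120 to 0.419 in all alternatives. Differences after 14 weeks were 0.31 (SE 0.46, adjusted p = 0.916 in edgeR) at 1 year and -0.20 (SE 0.46, adjusted p = 0.930 in edgeR) at 1.5 years.

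Cybb, the phagocyte oxidase, ordered the 5 fibroblast ages by its means in the same way as the summed leukocyte markers did. Of the single markers, Csf1r, Adgre1, and C1qa had this order of means and the others did not. Ptprc and S100a8 were highest at 1.5 years, and Cd68 and Fcgr1 at postnatal day 1. In fibroblasts it was at 16.7, 1.54, and 5.78 CPM at postnatal day 1, 10.1, 21.8, and 12.9 CPM at 4 weeks, 3.05 and 2.36 CPM at 14 weeks, 0.702 and 0.581 CPM at 1 year, and 3.74 and 6.25 CPM at 1.5 years. The samples of 14 weeks and 1 year lay below all 3 of 4 weeks, and those of 1 year were lower than in every sample at postnatal day 1. The summed level of 11 leukocyte markers was 204, 103, and 104 CPM at postnatal day 1, between 268 and 440 CPM at 4 weeks, between 40.3 and 51.8 CPM at 14 weeks, between 20.8 and 23.0 CPM at 1 year, and between 85.6 and 94.4 CPM at 1.5 years. The sample with the highest Cybb at postnatal day 1, replicate 1, also had the highest marker sum of that age, and the same held for replicate 2 at 4 weeks. Cd3e was at 0 in every fibroblast sample at postnatal day 1, 4 weeks, and 1.5 years, and Cd79a at postnatal day 1. Over all 27 samples Cybb amounted to between 1.41% and 8.18% of the leukocyte marker sum. From 4 to 14 weeks the log2 difference was -2.47 (SE 0.83, adjusted p = 0.147 in edgeR), which passed with DESeq2 (adjusted p = 0.0184) and with edgeR on these 2 ages alone (0.0351), over a range of 0.0184 to 0.587 in all alternatives. At 1 year against 14 weeks it was -2.07 (SE 0.87, adjusted p = 0.337 in edgeR). The part of leukocytes in these differences was not tested.

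**Figure D2:**
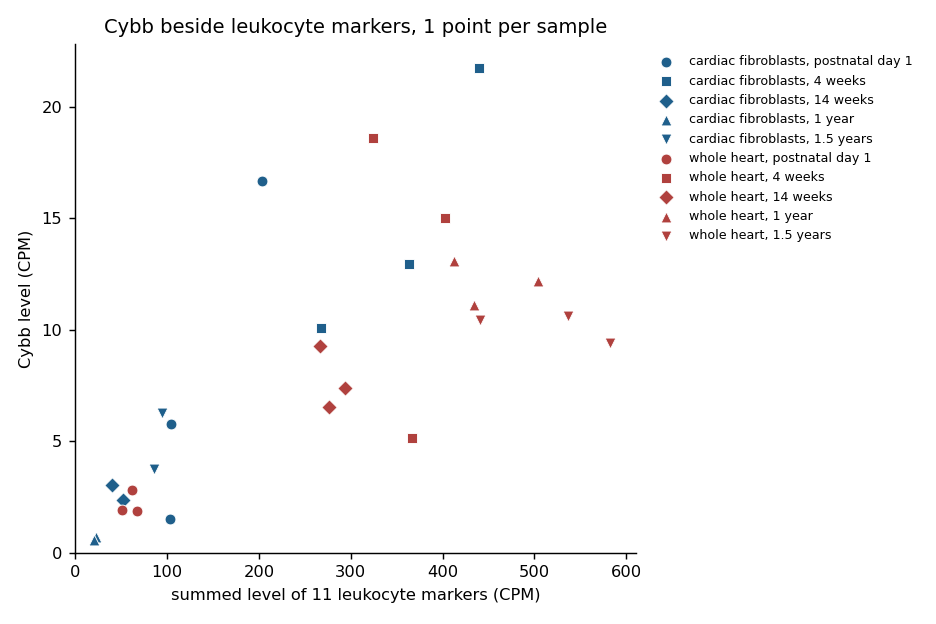
Cybb (vertical axis, CPM) against the summed level of 11 leukocyte markers (horizontal axis, CPM), each point being 1 of the 27 samples, with color for the tissue and shape for the age. Fibroblasts at 1 year, with marker sums of 20.8 and 23.0 CPM, had the 2 lowest Cybb levels, and the 15 samples with sums of 266 CPM or more all held at least 5.17 CPM of Cybb.

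Cyba, the partner subunit of Nox4 and Cybb, was nearly level in young fibroblasts. It was at 38.3, 35.8, and 26.6 CPM at postnatal day 1, 28.8, 35.5, and 34.6 CPM at 4 weeks, 28.3 and 27.8 CPM at 14 weeks, 59.2 and 55.0 CPM at 1 year, and 42.0 and 47.3 CPM at 1.5 years. Both samples of 1 year lay above every other fibroblast sample. From 14 weeks to 1 year Cyba rose by 1.03 on the log2 scale (SE 0.21, adjusted p = 0.0303 in edgeR). The call was lost when any of the 4 samples was left out, which left 1 sample at an age, with adjusted p between 0.128 and 0.293 in edgeR, and also with library totals in place of TMM (adjusted p = 0.0676 in edgeR). In this comparison log2 changes fell with exon length over all genes (Spearman rho = -0.243 over 13053 genes), and Cyba is short, with 1039 exon bases against a median of 3221. With an offset for length the difference was 0.65 (adjusted p = 0.156 in edgeR), and the adjusted p of all alternatives lay between 0.000301 and 0.293. By 1.5 years the difference from 14 weeks was 0.67 (SE 0.21, adjusted p = 0.130 in edgeR and 0.0309 in DESeq2, 0.0309 to 0.583 in all alternatives).

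Gpx3, the secreted glutathione peroxidase, had the highest level per kilobase of exon of the 8 genes at every age in fibroblasts. It was at 949, 714, and 867 CPM at postnatal day 1, 942, 997, and 796 CPM at 4 weeks, 1400 and 1729 CPM at 14 weeks, 3146 and 3228 CPM at 1 year, and 1827 and 2221 CPM at 1.5 years. Samples of the first 2 ages overlapped, those of 14 weeks lay above them, and those of 1 year lay above all others. Gpx3 rose from 4 to 14 weeks by 0.78 (SE 0.16, adjusted p = 0.0198 in edgeR) and from 14 weeks to 1 year by 1.03 (SE 0.18, adjusted p = 0.0142 in edgeR), both on the log2 scale. The first call was lost without replicate 4 or 6 at 14 weeks (adjusted p = 0.0591 and 0.257 in edgeR) and without replicate 1 at 4 weeks (0.0558), and the second without any of its 4 samples (0.0708 to 0.232). The lowest adjusted p of an alternative was 8.779e-05 for the first and 1.485e-06 for the second. Between 14 weeks and 1.5 years the difference was 0.37 (SE 0.18, adjusted p = 0.394 in edgeR).

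Sod3, the superoxide dismutase of the extracellular matrix, was at 85.0, 37.8, and 56.3 CPM in fibroblasts at postnatal day 1. It was at 480, 472, and 352 CPM at 4 weeks, 522 and 646 CPM at 14 weeks, 951 and 988 CPM at 1 year, and 579 and 530 CPM at 1.5 years. As for Duox1 and Duoxa1, every later sample lay above every sample of postnatal day 1, and the ratios of the means to that of postnatal day 1 were 7.28, 9.78, 16.3, and 9.29 in order of age. These 3 genes were the members without overlap at 4 weeks, where 28.5% of all 18759 genes tested in fibroblasts did not overlap. Among later ages Sod3 was not called. The log2 difference between 14 weeks and 1 year was 0.73 (SE 0.29, adjusted p = 0.284 in edgeR), which passed with edgeR on these 2 ages alone (adjusted p = 0.0115, 0.0115 to 0.927 in all alternatives).

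**Figure D3:**
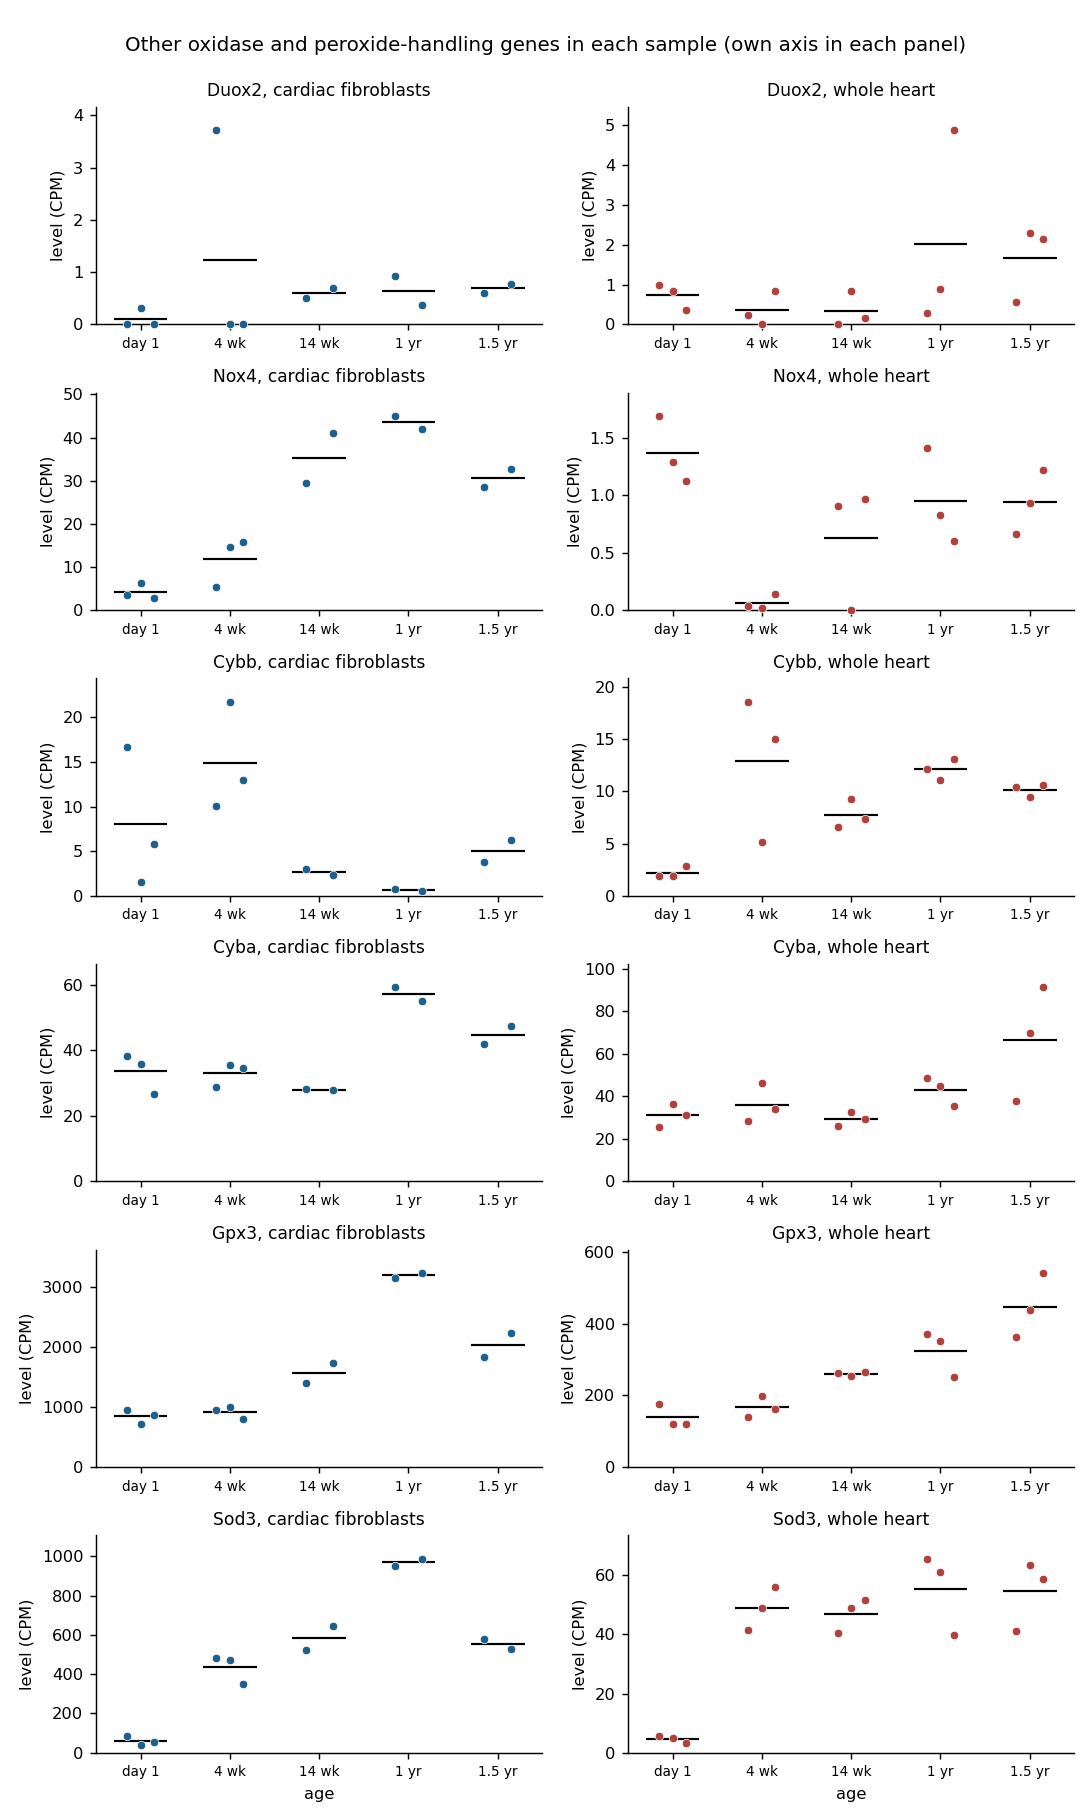
Levels of Duox2, Nox4, Cybb, Cyba, Gpx3, and Sod3 in CPM (vertical axes, a scale of its own in each panel) at the 5 ages (horizontal axes) in fibroblasts (left) and whole hearts (right), each point being 1 sample and each bar the mean. In fibroblasts Nox4, Gpx3, and Sod3 had their highest levels at 1 year (42.0 to 45.0, 3146 to 3228, and 951 to 988 CPM), where Cybb had its lowest (0.581 and 0.702 CPM).

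Counted together, 1 of the 8 members was called between 4 and 14 weeks in fibroblasts (Gpx3), where 3.87% of all genes were called and the samples of 34.7% did not overlap. Over this step the mural marker sum went from between 56.3 and 159.5 to between 299.8 and 420.7 CPM. The leukocyte and fibroblast sums were lower in every sample of 14 weeks, and the endothelial and cardiomyocyte sums overlapped. Their part in the differences of Gpx3 and Nox4 over this step was not tested. Between 14 weeks and 1 year 2 members were called (Cyba and Gpx3), against 1.78% of all genes (53.4% without overlap), and the median log2 change of the 8 was 0.36 against -0.01 over all genes. Beside these calls, marker sums of other cells were lower in both samples of 1 year than in both of 14 weeks, going from between 1289 and 1568 to between 465.6 and 649.4 CPM for endothelial, from between 299.8 and 420.7 to between 212.6 and 218.4 CPM for mural (5 genes), and from between 81.0 and 112.2 to between 13.8 and 35.97 CPM for cardiomyocyte markers, with the leukocyte sums as given for Cybb. Fibroblast markers went from between 22960 and 24320 to between 27790 and 32100 CPM. The part of other cells in the calls of Cyba and Gpx3 was not tested. At 1.5 years against 14 weeks edgeR called 0 of 8 (2.72% of all genes), with 1 at an unadjusted p under 0.05 and 1 by DESeq2. At 1.5 years against 1 year edgeR called 0 of 8 (0.24% of all genes), with 3 at an unadjusted p under 0.05 and 2 by DESeq2.

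Per kilobase of exon, which allows levels of different genes to be compared, the order in fibroblasts at 4 weeks was Gpx3 (503 CPM per kb), Sod3 (116), Cyba (31.8), Duox1 (6.46), Cybb (2.57), Duoxa1 (2.03), Nox4 (1.41), and Duox2 (0.183). Samples of Cybb overlapped with those of Duoxa1 and samples of Duoxa1 with those of Nox4, whereas Duox1 lay above Cybb in every sample, at 6.04 or more against at most 3.75 CPM per kb. At 14 weeks Duox1 and Nox4 overlapped (means 4.29 and 4.16 CPM per kb). At 1 year Nox4 averaged 5.14 and Duox1 3.85 CPM per kb, again with overlap, and at 1.5 years Duox1 lay above Nox4 in both samples (at least 5.80 against at most 3.86). By this measure Duox1 had the highest level of the 4 catalytic subunits at 4 weeks and 1.5 years, while at postnatal day 1 Cybb (1.38 CPM per kb) and Nox4 (0.497) stood above Duox1 (0.00186), Cybb and Nox4 overlapping. The order depends on the exon lengths used, and the annotation of the counting is not known. In CPM, Duox1 (37.5 and 30.5) and Nox4 (28.5 and 32.7) overlapped at 1.5 years.

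In whole heart Duox1 was low, and it rose between postnatal day 1 and 4 weeks. The genes were chosen with earlier results of these hearts known, so the test is no independent support for the course in fibroblasts. It was at 0, 0, and 0.0322 CPM at postnatal day 1 (0, 0, and 3 counts) and at 1.53, 1.34, and 0.749 CPM at 4 weeks. At 14 weeks it was at 0.623, 0.799, and 0.869 CPM, at 1 year at 0.275, 1.71, and 1.28 CPM, and at 1.5 years at 1.86, 0.953, and 0 CPM. All hearts of 4 weeks, 14 weeks, and 1 year lay above all hearts of postnatal day 1, and replicate 3 at 1.5 years had no count. Against the floor of 3 counts Duox1 rose at least 36.8-fold by 4 weeks (adjusted p = 0.0268 in edgeR). Without replicate 1 or 2 at postnatal day 1 the adjusted p was 0.0935 or 0.102 in edgeR, and it was 0.0515 with the replicate number as a block. All alternatives gave between 0.0001215 and 0.102.

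Duoxa1 in whole heart was at 0.0109, 0, and 0.0107 CPM at postnatal day 1, with at most 1 count, and at 0.0159, 0.597, and 0.664 CPM at 4 weeks. Later hearts ranged from 0 to 0.237 CPM at 14 weeks, from 0.0201 to 2.07 CPM at 1 year, and from 0.609 to 0.874 CPM at 1.5 years. Replicate 1 at 4 weeks, with 1 count, stood apart from the other 2 hearts of its age. The mean at 4 weeks was at least 13.0-fold above the floor, with an adjusted p of 0.0925 in edgeR and 0.0116 in DESeq2 (0.0116 to 0.232 in all alternatives).

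Sod3 and Cybb rose in the heart between postnatal day 1 and 4 weeks. Sod3 went from 5.59, 4.81, and 3.39 CPM to 41.5, 49.1, and 56.1 CPM, a log2 change of 3.41 (SE 0.25, adjusted p = 9.571e-08 in edgeR), and lay between 39.7 and 65.7 CPM in all later hearts. Cybb went from 1.86, 1.90, and 2.81 CPM to 18.6, 5.17, and 15 CPM, a log2 change of 2.56 (SE 0.39, adjusted p = 0.0001786 in edgeR), while the leukocyte marker sum went from between 50.6 and 67.0 to between 324 and 403 CPM. The part of these markers in the rise of Cybb was not tested. Both calls held with each heart left out in turn.

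Nox4 was low in whole heart. It was at 1.69, 1.29, and 1.13 CPM at postnatal day 1 and at 0.0319, 0.0146, and 0.141 CPM at 4 weeks, that is at 2, 1, and 10 counts. Later hearts held at most 1.42 CPM, and replicate 2 at 14 weeks held none. The hearts of 4 weeks lay below all 3 of postnatal day 1, whereas fibroblasts of these ages went the other way in their means. The log2 difference was -4.40 (SE 1.55, adjusted p = 0.0589 in edgeR), and it passed with DESeq2 (adjusted p = 0.000875), with library totals in place of TMM in edgeR (0.0310), and with edgeR on these 2 ages alone (0.0472), over a range of 0.000875 to 0.167 in all alternatives.

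Cyba in whole heart was at 25.8, 36.5, and 31.4 CPM at postnatal day 1, 28.2, 46.1, and 34.0 CPM at 4 weeks, 26.1, 32.8, and 29.3 CPM at 14 weeks, 48.9, 44.8, and 35.6 CPM at 1 year, and 37.7, 70.0, and 91.4 CPM at 1.5 years. Hearts of 1 year and 1.5 years lay above all hearts of 14 weeks, and those of 1.5 years were widely spread. Cyba rose by 1.18 on the log2 scale between 14 weeks and 1.5 years (SE 0.27, adjusted p = 0.0096 in edgeR). Without replicate 3 at 1.5 years the difference was 0.87 (adjusted p = 0.0564 in edgeR). Between 14 weeks and 1 year it was 0.55 (SE 0.27, adjusted p = 0.374 in edgeR) and passed with edgeR on these 2 ages alone (adjusted p = 0.0487, 0.0487 to 0.639 in all alternatives).

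Gpx3 in whole heart was at 177, 120, and 121 CPM at postnatal day 1, 140, 197, and 162 CPM at 4 weeks, 264, 254, and 266 CPM at 14 weeks, 373, 351, and 253 CPM at 1 year, and 364, 440, and 542 CPM at 1.5 years. The hearts of 14 weeks lay above all younger hearts. From 4 to 14 weeks the log2 difference was 0.65 (SE 0.20, adjusted p = 0.125 in edgeR and 0.0408 in DESeq2, 0.0171 to 0.343 in all alternatives). Gpx3 rose by 0.78 on the log2 scale between 14 weeks and 1.5 years (SE 0.20, adjusted p = 0.0160 in edgeR), with all 3 hearts of 1.5 years above all 3 of 14 weeks. That call was lost without replicate 1, 2, or 3 at 14 weeks (adjusted p = 0.0551, 0.0592, and 0.0570 in edgeR) and without replicate 3 at 1.5 years (0.0786). In this comparison log2 changes over all genes went down with exon length (Spearman rho = -0.508 over 12972 genes), and Gpx3 (1813 exon bases) and Cyba are both short. Xist and Ddx3y also differed between these ages, so sex and age cannot be told apart here. With an offset for length the difference at 1.5 years was 0.35 for Gpx3 (adjusted p = 0.157 in edgeR) and 0.47 for Cyba (adjusted p = 0.182 in edgeR). The lowest adjusted p of an alternative was 0.000733 for Gpx3 and 0.000315 for Cyba.

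Of the 8 members, 3 were called in the heart between postnatal day 1 and 4 weeks (Duox1, Cybb, and Sod3), where 18.2% of all genes were called and the samples of 39% did not overlap. DESeq2 called 5. Between 14 weeks and 1.5 years 2 were called (Cyba and Gpx3), against 12.8% of all genes (31.7% without overlap). From 4 to 14 weeks edgeR called 0 (1.61% of all genes, 20.1% without overlap), with 2 at an unadjusted p under 0.05 and 1 by DESeq2, and from 14 weeks to 1 year 0 (0.972%, 26.4% without overlap), with 0 at an unadjusted p under 0.05 and 0 by DESeq2. Between 1 year and 1.5 years edgeR called 0 (2.66%), with 2 at an unadjusted p under 0.05 and 0 by DESeq2.

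Sorted fibroblasts and whole hearts were then compared at the 2 ages with 3 samples of each, to see which members had a higher level in the sorted cells than in the tissue as a whole. Here libraries of both tissues were scaled together, so mean levels differ somewhat from those above. At postnatal day 1, Gpx3 was higher in fibroblasts by 2.25 on the log2 scale (740 against 156 CPM, SE 0.20, adjusted p = 5.063e-09 in edgeR), and Sod3 by 3.35 (52.4 against 5.13 CPM, SE 0.28, adjusted p = 1.209e-09 in edgeR). In both genes the samples of the tissues did not overlap. Cybb was higher by 1.52 (SE 0.56, adjusted p = 0.0414 in edgeR), but its samples overlapped. Without fibroblast replicate 1, which had the highest leukocyte marker sum, the difference was 0.40 (adjusted p = 0.611 in edgeR), and the call was also lost without heart replicate 1, 2, or 3 (0.117, 0.115, and 0.0546). All alternatives gave between 0.00231 and 0.611. Cyba differed by -0.24 (SE 0.24, adjusted p = 0.505 in edgeR) and Nox4 by 1.27 (SE 0.70, adjusted p = 0.172 in edgeR). In all, 3 of 8 members were called, against 32.3% of all genes (46.1% without overlap).

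At 4 weeks Nox4 was higher in fibroblasts by 7.16 on the log2 scale (10.2 against 0.0688 CPM, SE 0.94, adjusted p = 1.227e-06 in edgeR). The hearts held only 2, 1, and 10 counts of Nox4, so the size of this difference is uncertain. Gpx3 was higher by 2.11 (SE 0.20, adjusted p = 9.505e-09 in edgeR) and Sod3 by 2.81 (SE 0.27, adjusted p = 9.221e-09 in edgeR). Duoxa1 was higher by 3.88 (SE 1.40, adjusted p = 0.0336 in edgeR), a call that was lost without fibroblast replicate 2 (adjusted p = 0.0687 in edgeR) or heart replicate 1, 2, or 3 (0.0831, 0.0622, and 0.0564), within a range of 0.00302 to 0.0831 in all alternatives. Cyba (-0.48, SE 0.25, adjusted p = 0.131 in edgeR) and Cybb (-0.14, SE 0.55, adjusted p = 0.921 in edgeR) were not called. A p above the threshold does not show that the tissues had equal levels. In all, 4 of the 7 members tested were called, against 36.1% of all genes (45.1% without overlap). Duox1, given without a test, averaged 29.4 CPM in fibroblasts and 1.32 CPM in hearts.

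**Figure D4:**
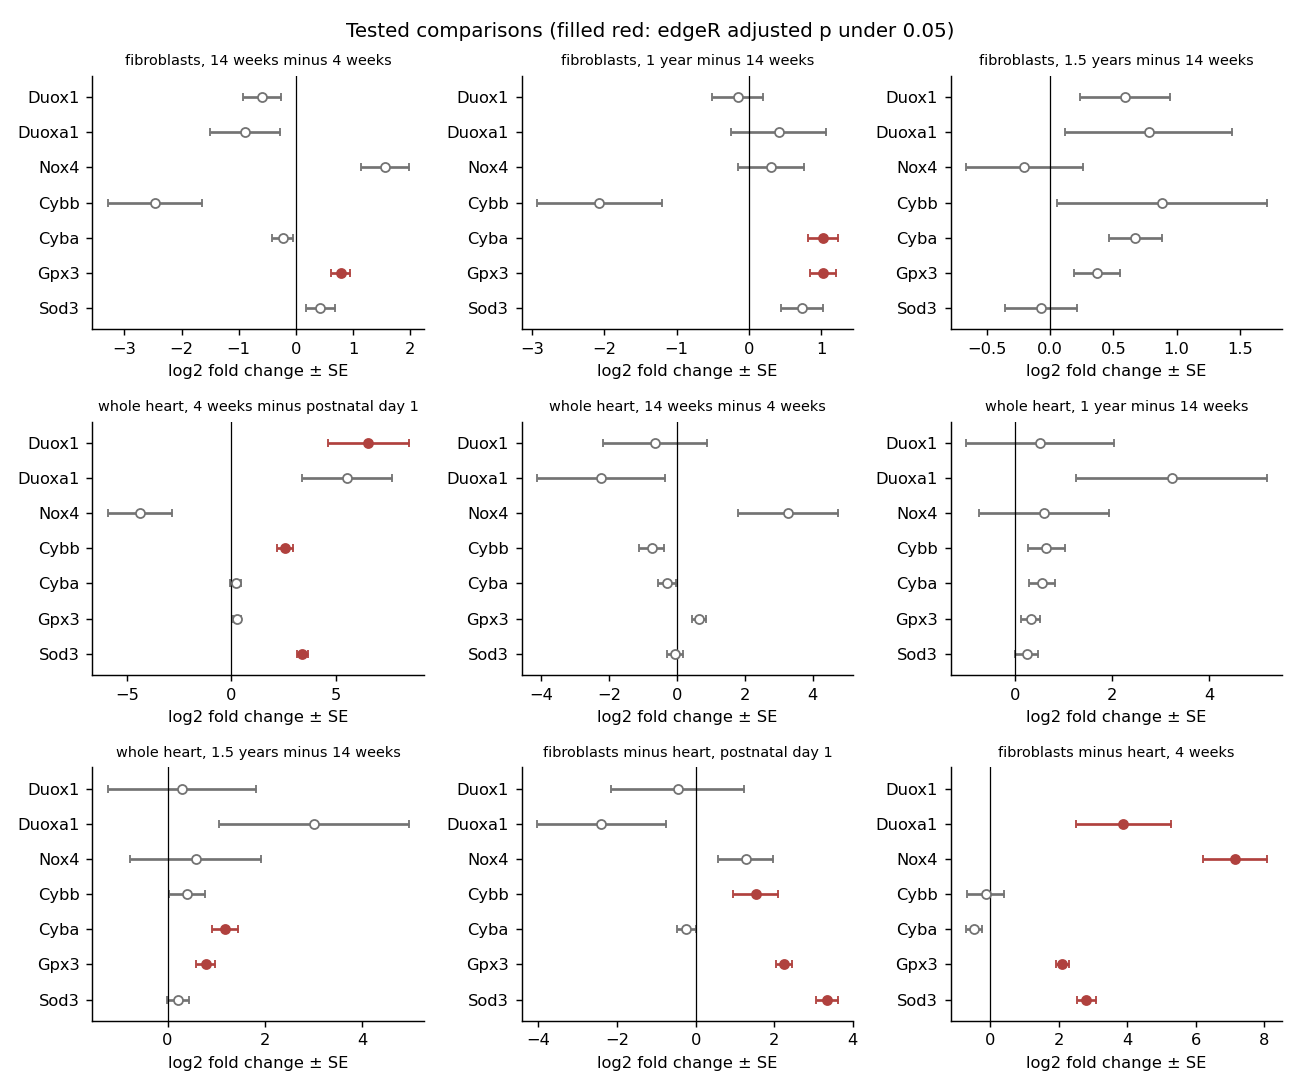
Log2 differences from edgeR (points) with SE (bars) on the horizontal axis, in a panel for each comparison with a scale of its own, red filled points having an adjusted p under 0.05. Duox2 is not drawn, nor is Duox1 at 4 weeks between the tissues, and fitted values against groups with at most 3 counts per sample depend on the model and are no estimate of size. Cyba and Gpx3 were called together at 1 year in fibroblasts and at 1.5 years in hearts, each against 14 weeks.

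The level in whole heart as a share of that in fibroblasts separated the members. For 7 fibroblast markers this share was between 3.39% and 12.2% at postnatal day 1, between 3.11% and 8.52% at 4 weeks, between 2.84% and 6.95% at 14 weeks, between 1.16% and 7.34% at 1 year, and between 3.85% and 9.85% at 1.5 years. Duox1 lay within that band at 4.51%, 4.31%, and 6.59% at 4 weeks, 14 weeks, and 1 year, and just below it at 3.55% at 1.5 years. Duoxa1 was at 6.74%, 2.59%, 17.8%, and 12.6% at these ages. Its hearts held 0, 1, and 12 counts at 14 weeks and 23, 1, and 103 at 1 year, so its shares there are uncertain. Nox4 was at 41.4% at postnatal day 1, below the band at 4 and 14 weeks (0.673% and 2.27%), and within it at 1 year and 1.5 years (2.70% and 3.99%). Sod3 lay at between 7.08% and 14.3% at the 5 ages and Gpx3 above the band at every age, at between 12.6% and 28.8%. Cyba was at between 93.2% and 193%, and Cybb went from 34.8% at postnatal day 1 to 110%, 367%, 2330%, and 264% at the later ages. The leukocyte marker sum of every heart from 14 weeks on (266 CPM or more) lay above that of every fibroblast sample of these ages (94.4 CPM or less), and its part in the share of Cybb was not tested. Duox2, which was low in both tissues, was at 870.5%, 36.1%, 69.3%, 380%, and 315% in order of age. These shares are descriptions of group means and were not tested.

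**Figure D5:**
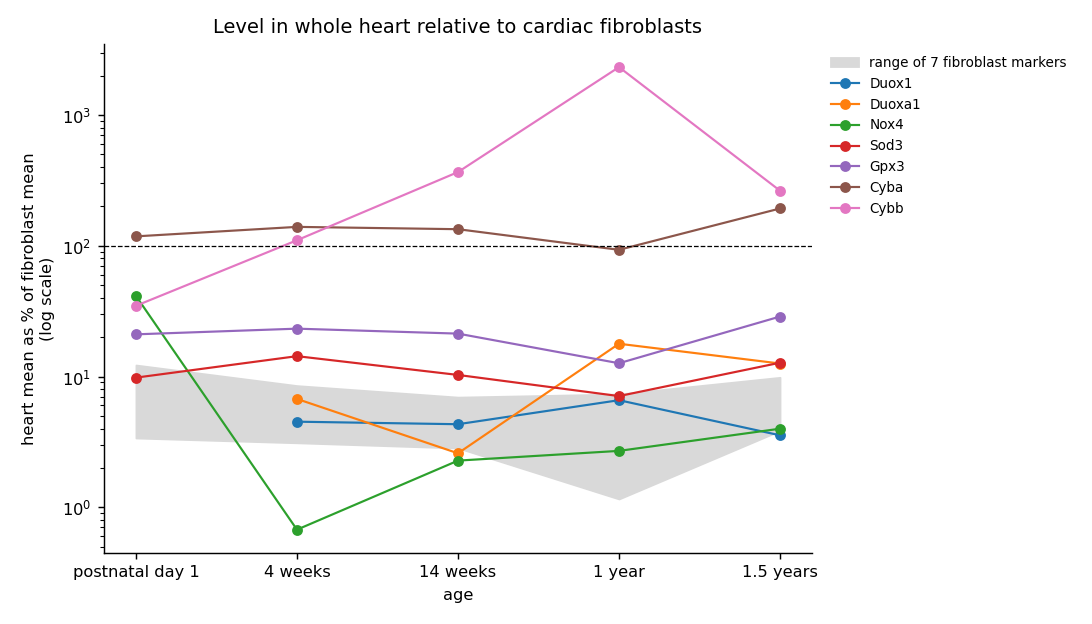
Mean level in whole heart as a percentage of the mean in fibroblasts (vertical axis, log scale) at the 5 ages (horizontal axis) for the members except Duox2, with the range of 7 fibroblast markers as a band. Duox1 lay at 3.55% to 6.59% after birth, and Cyba (93.2% to 193%) and Cybb at 14 weeks and later (264% to 2330%) far above the band.

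The genes whose pattern was most like that of Duox1 were found from Pearson correlations of log2 CPM over the 12 fibroblast samples among 13315 genes. Members left out, they were Bdh2 (r = 0.995), Sfrp4 (0.993), Ddr2 (0.993), Atp6v0a4 (0.993), and Col4a6 (0.993). Of these, Bdh2, Sfrp4, and Atp6v0a4 averaged at most 0.00489 CPM at postnatal day 1 and between 4.59 and 8.50 CPM at 4 weeks, whereas Ddr2, a collagen receptor, went from 178 to 622 CPM and Col4a6, a basement membrane collagen chain, from 6.17 to 75.8 CPM. Among the members, Duoxa1 had an r of 0.996, Sod3 of 0.928, Nox4 of 0.764, Gpx3 of 0.508, Cyba of 0.215, and Cybb of -0.07. The coefficients describe samples that share the step between postnatal day 1 and later ages.

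Of 34 other genes of oxidase assembly and peroxide removal, 31 were in the tables. In fibroblasts between postnatal day 1 and 4 weeks 8 of 31 fell and 1 rose, against 6.2% and 9.28% of all genes. Pxdn, a peroxidase that crosslinks collagen IV, fell by 0.98 on the log2 scale (SE 0.12, from 1359 ± 98.9 to 690 ± 29.9 CPM, SD, n = 3, adjusted p = 8.995e-05 in edgeR). The peroxiredoxins Prdx4 and Prdx2 fell by 1.198 and 0.82 (adjusted p = 0.00387 and 0.00361 in edgeR), and thioredoxin Txn1 rose by 0.48 (adjusted p = 0.0368 in edgeR). The rise of Txn1 was not called with library totals in place of TMM, where 9 fell and 0 rose in edgeR. The count of 9 calls went to 4 without replicate 2 and to 5 without replicate 3 at 4 weeks. Pxdn fell again from 4 to 14 weeks by 0.68 (adjusted p = 0.0143 in edgeR) and at 1.5 years against 14 weeks by 0.74 (adjusted p = 0.0162 in edgeR). Between 4 and 14 weeks 3 of 31 fell and 0 rose (2.08% and 1.79% of all genes), including Rac2, a leukocyte GTPase of the Cybb complex (-2.97, adjusted p = 0.0484 in edgeR, beside the lower leukocyte marker sum at 14 weeks given above), and Sh3pxd2a, a podosome scaffold (-0.92, adjusted p = 0.00981 in edgeR). Of the 31 genes, 1 rose and 1 fell at 1.5 years against 14 weeks (1.91% and 0.816% of all genes, rises making up 70.1% of all calls with TMM and 36.9% with library totals). Txnrd1, the thioredoxin reductase of the cytosol, rose by 1.98 (from 44.6 ± 3.83 to 176 ± 16.2 CPM, SD, n = 2, adjusted p = 0.00262 in edgeR).

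In whole heart 11 of 29 such genes rose and 1 fell between postnatal day 1 and 4 weeks, against 12.1% and 6.1% of all genes. Among those that rose were Ncf1, a leukocyte oxidase subunit (2.17, adjusted p = 0.000217 in edgeR), and Rac2 (1.80, adjusted p = 0.00317 in edgeR), beside the rise of the leukocyte marker sum given above for Cybb, whose part was not tested. Prdx4 fell by 0.97 (adjusted p = 0.0278 in edgeR). This split depended on scaling: with library totals in place of TMM 5 rose and 5 fell, the median of all genes shifted from -0.09 to -0.60, and the share of calls that were rises went from 66.5% to 20.5%. At 1.5 years against 14 weeks 9 of 29 rose and 1 fell (4.91% and 7.86% of all genes), with 5 and 1 under an offset for length, and 38.4% of all calls were rises with TMM and 63.2% with library totals. From 4 to 14 weeks 1 rose (Cat, by 0.73, adjusted p = 0.0145 in edgeR) and 1 fell (Pxdn, by 1.25, adjusted p = 0.0389 in edgeR), against 0.756% and 0.85% of all genes. At 1.5 years against 14 weeks Rac2 rose by 1.94 (adjusted p = 0.00421 in edgeR), beside a leukocyte marker sum that went from between 266 and 294 to between 441 and 583 CPM and whose part was not tested. Gpx8, a peroxidase of the endoplasmic reticulum, rose by 1.25 (adjusted p = 0.00269 in edgeR), Prdx4 rose by 1.18 (adjusted p = 0.0154 in edgeR), and Cat, which degrades hydrogen peroxide in peroxisomes, fell by 0.48 (adjusted p = 0.0347 in edgeR).

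Between tissues, 7 of 31 were higher and 13 lower in fibroblasts at postnatal day 1 (13.6% and 18.7% of all genes), and 6 were higher and 13 lower at 4 weeks (17.5% and 18.6%). With library totals in place of TMM, 8 were higher and 12 lower at 4 weeks, and 61.5% in place of 48.5% of all calls were higher in fibroblasts. The mitochondrial enzymes Sod2 and Prdx3 were lower in fibroblasts, with log2 differences of -2.76 and -2.62 at postnatal day 1 (adjusted p = 2.715e-09 and 8.077e-10 in edgeR) and of -4.40 and -3.72 at 4 weeks (adjusted p = 2.2e-12 and 2.716e-12 in edgeR). Sh3pxd2b, a scaffold protein related to oxidase organizers, was higher by 3.29 and 3.35 (adjusted p = 6.482e-07 and 3.813e-07 in edgeR), and Pxdn by 2.68 and 1.88 (adjusted p = 1.654e-08 and 1.746e-06 in edgeR).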

How the data were processed

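PolyA RNA of sorted fibroblasts and whole hearts was sequenced as single-end reads of 65 bases on an Illumina platform. The authors mapped reads to mm10 with STAR 2.5.3a and deposited raw counts per gene from its gene counting, without normalization. The annotation and strand setting of this counting are not given in the sources used here. All 27 samples were grouped by tissue and age in their labels. The methods state 3 sets of fibroblasts per age, whereas the labels show 2 from 14 weeks on. Of 24 pairs of samples of the same group, none held identical counts (lowest chi-square per degree of freedom 28.5).

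Each tissue was fitted with edgeR 4.0.16 in R 4.3.3, with age as the only factor, filterByExpr, TMM scaling, and the quasi-likelihood F test, and both tissues together (27 samples, 10 groups) to compare them. P-values were Benjamini-Hochberg adjusted over all genes tested (18759 in fibroblasts, 17995 in hearts, 20650 together), and the threshold for a call was 0.05. In the same order, the common biological coefficient of variation came to 87.9%, 71.8%, and 83.6%. DESeq2 1.42.0, size factors by median of ratios, library totals, no filter, a minimum of 10 counts per sample, a 2-fold threshold, a fit of the 2 groups compared alone, a block for replicate number, and leaving out every sample in turn were alternatives. Where this left 1 sample at an age, that sample is assumed to vary like the other groups. An offset for exon length and counts without mitochondrial genes were added after the data were seen. Members, the other redox genes, and marker lists were chosen with earlier results of these data known, and the text names the members, up to 3 called redox genes in each direction per comparison, and the 5 genes most like Duox1 with a mean of at least 1 CPM. A gene that this rule names is not reported here. Fold changes against ages with at most 3 counts in every sample are lower limits.

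Exon lengths and coordinates were those of GENCODE M21 (GRCm38), which held 21796 of the symbols (95.4%), and promoters from RefSeq. In simulated data 200 genes were changed 4-fold. For fibroblasts of 14 against 4 weeks (18759 genes) edgeR recovered 59.5% of them with 14 false calls, and DESeq2 68% with 102. For hearts of 4 weeks against postnatal day 1 (17995 genes) edgeR recovered 66.5% with 6 false calls, and DESeq2 74% with 80. The counts were drawn with the spread that edgeR had estimated, so these shares cannot rank the tools on the real counts. Calls made by DESeq2 alone are those the main test did not make, and are taken as less certain. The changed genes were drawn only from those above a minimum mean count, so these shares do not cover genes near the floor. Work in python 3.11.15 used numpy 2.4.6, pandas 2.3.3, scipy 1.17.1, and matplotlib 3.10.9.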

Additional observations from a re-analysis of the deposited data

Results flagged for a closer look

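The levels of Cybb differed in opposite directions in the 2 tissues at 2 steps. From 14 weeks to 1 year both fibroblast samples lay lower (from 3.05 and 2.36 to 0.702 and 0.581 CPM) and all 3 hearts higher (from between 6.55 and 9.29 to between 11.1 and 13.1 CPM), and the difference between the log2 changes was -2.66 (SE 0.90, adjusted p = 0.166 in edgeR as an interaction). From 1 year to 1.5 years both fibroblast samples lay higher (at 3.74 and 6.25 CPM) and all 3 hearts lower (at between 9.42 and 10.6 CPM), with a difference of 3.14 (SE 0.90, adjusted p = 0.128 in edgeR). At the latter step Gpx3 and Cyba also had log2 changes of opposite sign, -0.65 in fibroblasts and 0.46 in hearts for Gpx3 (difference -1.19, SE 0.31, adjusted p = 0.0913 in edgeR) and -0.35 and 0.62 for Cyba (difference -1.05, SE 0.39, adjusted p = 0.239 in edgeR), but their hearts of these ages overlapped. None of these differences passed the threshold, and no member had an interaction with an adjusted p under 0.05 at any of the 4 later steps. The leukocyte marker sum went in fibroblasts from between 40.3 and 51.8 to between 20.8 and 23.0 and then to between 85.6 and 94.4 CPM, and in hearts from between 266 and 294 to between 412 and 504 and then to between 441 and 583 CPM. Its part in these values was not tested.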

How the results depend on the processing

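Of 673 recomputed values for 50 gene results, 613 kept their direction and side of the threshold, 35 lost the call, 15 gained one, and 10 changed sign. In fibroblasts among later ages the calls of members, a gene being counted anew in each comparison, numbered 3 (of Gpx3 and Cyba). They were 8 with DESeq2, 5 with the compared ages alone, and between 0 and 5 with a sample left out (0 without replicate 4 or 6 at 14 weeks, 1 without replicate 4 or 5 at 1 year, 5 without replicate 2 at postnatal day 1). At 1.5 years against 1 year 0 members were called, against 2 with DESeq2. In hearts between postnatal day 1 and 4 weeks the 3 calls became 5 with DESeq2. The 2 calls at later ages in hearts (Cyba and Gpx3) became 1 with the length offset, where both were lost and Gpx3 was called from 4 to 14 weeks instead (adjusted p = 0.0171 in edgeR), 1 at a 2-fold threshold, and between 0 and 3 with a sample left out (0 without replicate 3 at 1.5 years, 3 without replicate 1 at that age, 1 without replicate 1, 2, or 3 at 14 weeks). The number of calls between tissues, 7, stayed within 1.5 times under every alternative, but not every call held. Those of Cybb at postnatal day 1 and of Duoxa1 at 4 weeks were lost in several alternatives. The calls of Gpx3 and Sod3 at both ages and of Nox4 at 4 weeks held in every fit that was recomputed. The other redox genes called between postnatal day 1 and 4 weeks went from 9 to 1 at a 2-fold threshold and to between 4 and 8 with a sample left out in fibroblasts (4 without replicate 2 and 5 without replicate 3 at 4 weeks), and from 12 to 6 at a 2-fold threshold in hearts. A higher fold threshold leaves fewer genes by its construction, and the cause of the other changes was not tested.

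Values that changed sign were all uncalled. With library totals in place of TMM, Cyba and Gpx3 in hearts between postnatal day 1 and 4 weeks went to -0.30 and -0.25, and Cybb between tissues at 4 weeks to 0.23. Cyba in the same heart comparison went to -0.0056 without replicate 2 at 4 weeks and to -0.0076 with the length offset. Cybb between tissues at 4 weeks went to 0.067 without fibroblast replicate 1, 0.29 without heart replicate 1, and 0.061 without heart replicate 3. With a sample left out these 3 ranged from -0.0056 to 0.36 for Cyba, from -0.53 to 0.29 for Cybb, and from -0.84 to 0.30 for Duox1 in fibroblasts between 14 weeks and 1 year, which went to 0.30 without replicate 5 at 1 year.

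Replicate numbers are shared by groups, but deviations of same-numbered samples correlated at between -0.06 and 0.10, so the numbers were not taken as a pairing. With the replicate block, Cybb between tissues at 4 weeks went to 0.17, the redox calls in fibroblasts went from 9 to 5, 2 members were called at 1.5 years against 1 year in fibroblasts, and the calls of Duox1 in hearts (adjusted p = 0.0515 in edgeR), Cybb between tissues at postnatal day 1 (0.241), and Duoxa1 between tissues at 4 weeks (0.0742) were lost. No block could be fitted for fibroblasts of 14 weeks, which share at most 1 number with any other age. Depth limits Duox1 and Duoxa1 in hearts, with at most 101 and 103 counts in a sample, Nox4 in hearts at 4 weeks, with at most 10, and Duox2, which had no count in some samples of both tissues.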

Other observations

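Within 100 kb of the DUOX cluster, the nucleoside transporter gene Slc28a2 differed in fibroblasts between postnatal day 1 and 4 weeks, where 15.5% of all genes were called. It lay between 1.29 and 2.62 CPM at postnatal day 1 and between 8.94 and 41.7 CPM at 4 weeks, without overlap, and rose by 3.68 on the log2 scale (SE 0.83, adjusted p = 0.00866 in edgeR). Sord, an enzyme of the polyol pathway, differed by 0.39 (SE 0.27, adjusted p = 0.366 in edgeR), Shf by -0.66 (SE 0.57, adjusted p = 0.489 in edgeR), and the pseudogene Rps12-ps10 by -0.32 (SE 1.82, adjusted p = 0.964 in edgeR). Duoxa2, the maturation factor of Duox2, had no count in fibroblasts at postnatal day 1 or 4 weeks. These neighbors were named after their values were seen.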
